A study of Mus musculus with 6 samples.

Results

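Branched-chain amino acid catabolism was followed at the transcript level through 10 genes of the pathway in cultured brown adipocytes: Bcat1, Bcat2, Bckdha, Bckdhb, Dbt, Bckdk, Ivd, Acadsb, Mccc1 and Hibadh. These 10 genes were chosen by name out of the 22466 genes with a RefSeq transcript in the deposited table, and each was represented by its RefSeq transcript with the highest mean abundance over all cultures. All 10 were detected in every culture, and all 10 passed the minimum mean abundance of 0.5 RPKM (read numbers divided by the length of the transcript and the mapped reads per culture). Between WT and Ucp1-KO cultures none of the 10 passed an adjusted limma p-value of 0.05. None of the 16865 transcripts tested did, the targeted gene Ucp1 included, so this says little about the 10. Their fitted differences lay between -0.10 and 0.22 on the log2 scale.

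The cells came from male mice aged 5 to 6 wk of the strain labelled 129SvEvS1, either wildtype (WT) or carrying the UCP1(-/-) genotype (Ucp1-KO) that removes uncoupling protein 1, the heat-producing proton carrier of brown fat. Precursor cells of the stromal vascular fraction of interscapular brown adipose tissue were differentiated in the dish. Cells of both genotypes received the same induction with isobutylmethylxanthine, indomethacin, dexamethasone, insulin, T3 and rosiglitazone for 2 d, followed by insulin, T3 and rosiglitazone for 7 d, so that all values describe cells exposed to the PPAR gamma ligand rosiglitazone and not stimulated before RNA was taken. Sequenced were 3 cultures of each genotype, numbered 10, 11 and 12 for WT and 13, 14 and 15 for Ucp1-KO. The 6 totals behind the RPKM values lay between 14989604 and 17727653 reads. Ucp1, the targeted gene, was at 1775, 981 and 1157 RPKM in the WT cultures and at 307, 409 and 398 RPKM in the Ucp1-KO cultures, where a remnant transcript is still made. The genotypes did not overlap for Ucp1, as the labels require. All 6 adipocyte markers and all 7 brown adipocyte markers were present in every group, with Fabp4 and Cidea as the most abundant of each list. In RNA of whole cultures, fewer cells of a type and less RNA per cell cannot be told apart.

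Leucine, isoleucine and valine share the first steps of their breakdown. The amino group is first moved to 2-oxoglutarate by a branched-chain aminotransferase, which is cytosolic in the case of Bcat1 and mitochondrial in the case of Bcat2. The resulting keto acids are then oxidized by the branched-chain keto acid dehydrogenase (BCKDH) complex, built from the E1 alpha and E1 beta subunits (Bckdha and Bckdhb), the E2 core (Dbt) and the E3 subunit (Dld), which is switched off by the kinase Bckdk and switched on by the phosphatase Ppm1k. Beyond the complex each amino acid has its own route, and the end products enter the tricarboxylic acid cycle or ketone and lipid synthesis. Brown fat is known to take up and oxidize branched-chain amino acids, which reach its mitochondria through the carrier Slc25a44.

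The promoter sequences of the aminotransferases and of Bckdhb are shown first, because Bcat1 has more than 1 annotated start and lay far below the other members, whereas Bcat2 performs the same reaction and Bckdhb was among the most abundant. RefSeq promoter windows on GRCm38.p6 matched 9 of the 10 members with 12 windows; Dbt was not among them. The stretches are the 250 bases before the annotated start, 5′ to 3′ on the strand of the gene, and capitals mark a match to 1 of 7 motifs searched on both strands. The distal start of Bcat1 (minus strand) is preceded by chr6:145076158-145076407, the internal start used by the isoform NM_001024468 by chr6:145048813-145049062, the Bcat2 start of NM_009737 (plus strand) by chr7:45569903-45570152 and the upstream Bckdhb start (plus strand) by chr9:83924887-83925136.
Bcat1 distal: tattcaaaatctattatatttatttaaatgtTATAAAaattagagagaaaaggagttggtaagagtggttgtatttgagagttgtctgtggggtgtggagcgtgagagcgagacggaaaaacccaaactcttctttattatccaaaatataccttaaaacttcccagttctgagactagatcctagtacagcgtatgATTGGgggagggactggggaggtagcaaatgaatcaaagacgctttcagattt
Bcat1 internal: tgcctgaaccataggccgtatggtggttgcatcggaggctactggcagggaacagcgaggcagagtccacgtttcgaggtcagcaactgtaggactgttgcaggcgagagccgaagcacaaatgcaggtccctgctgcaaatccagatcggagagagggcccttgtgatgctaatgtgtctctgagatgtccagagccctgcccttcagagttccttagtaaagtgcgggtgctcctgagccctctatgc
Bcat2: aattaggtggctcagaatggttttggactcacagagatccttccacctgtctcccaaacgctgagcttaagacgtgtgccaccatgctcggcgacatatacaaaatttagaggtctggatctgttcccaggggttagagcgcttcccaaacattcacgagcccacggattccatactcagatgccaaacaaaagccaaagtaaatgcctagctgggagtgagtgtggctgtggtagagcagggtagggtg
Bckdhb: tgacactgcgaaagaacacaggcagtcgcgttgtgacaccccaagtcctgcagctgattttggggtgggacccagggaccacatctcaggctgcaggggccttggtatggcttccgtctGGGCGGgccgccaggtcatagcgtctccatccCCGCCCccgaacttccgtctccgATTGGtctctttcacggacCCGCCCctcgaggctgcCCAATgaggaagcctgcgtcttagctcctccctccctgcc
In the distal Bcat1 window the capitals are a TATA box (TATAAA) 219 bases before the start and a CCAAT box on the opposite strand 53 bases before it. The Bckdhb window held 2 CCAAT boxes and 3 GC boxes (GGGCGG) and 15 CpG dinucleotides. The row NM_199195, from which Bckdhb was read, starts at position 83948781, 23644 bases further downstream, where the window held 1 CpG and no motif match. Bcat2 too was read from a row that starts further downstream, at position 45572869 (GENCODE M21), and no window before that start is shown. No match was found in the internal Bcat1 window or in the Bcat2 window, which says only that these letters are not in these stretches.

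Over the 12 windows of the members, 6 held a CCAAT box, against 33.8% of all 32851 windows of the same length. A GC box was found in 4 of 12 windows against 32.7% of all, and a TATA box in 2 of 12 against 12.4%. The E-box CACGTG (6.02% of all windows), the nuclear receptor element AAGGTCA (4.08%), the NRF1 core GCATGCGC (2.26%) and the amino acid response core TTGCATCA (0.791%) were in 0 of the 12. The densest CCAAT pattern belonged to Ivd, the leucine branch dehydrogenase, whose window chr2:118861744-118861993 (plus strand) held 4 copies, all on the opposite strand and the nearest 23 bases before the start.
Ivd: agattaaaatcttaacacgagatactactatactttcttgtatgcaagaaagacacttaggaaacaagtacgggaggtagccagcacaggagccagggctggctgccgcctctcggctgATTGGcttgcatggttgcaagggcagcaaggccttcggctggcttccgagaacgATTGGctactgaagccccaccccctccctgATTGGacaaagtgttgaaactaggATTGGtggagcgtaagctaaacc
The members' windows ranged from 1 to 25 CpG, and 9 of the 12 were at or above the median of 6 over all windows. These matches describe sequence and not binding.

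Levels of the members spread over a wide range that both genotypes shared. Averaged over the 6 cultures, Hibadh was highest at 192 ± 18.5 RPKM (SD, n = 6), followed by Bckdhb at 158 ± 8.84 and Bckdha at 153 ± 7.10 RPKM. Dbt followed at 78.7 ± 9.96 RPKM. The middle of the order was held by Acadsb (48.1 ± 2.93 RPKM), Bcat2 (45.0 ± 8.32 RPKM), Bckdk (37.9 ± 4.30 RPKM) and Ivd (34.9 ± 2.93 RPKM). Mccc1 was at 21.3 ± 1.72 RPKM, and Bcat1 was last at 2.39 ± 0.877 RPKM. Of the 9 pairs of neighbours in this order, 5 differed by more than the sum of their SDs. The pairs that did not were Bckdhb and Bckdha, Acadsb and Bcat2, Bcat2 and Bckdk, and Bckdk and Ivd, although Bckdk was above Ivd in 6 of 6 cultures. Set against the median of 7.39 RPKM over all transcripts tested, 9 of the 10 members were above it.

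**Figure D1:**
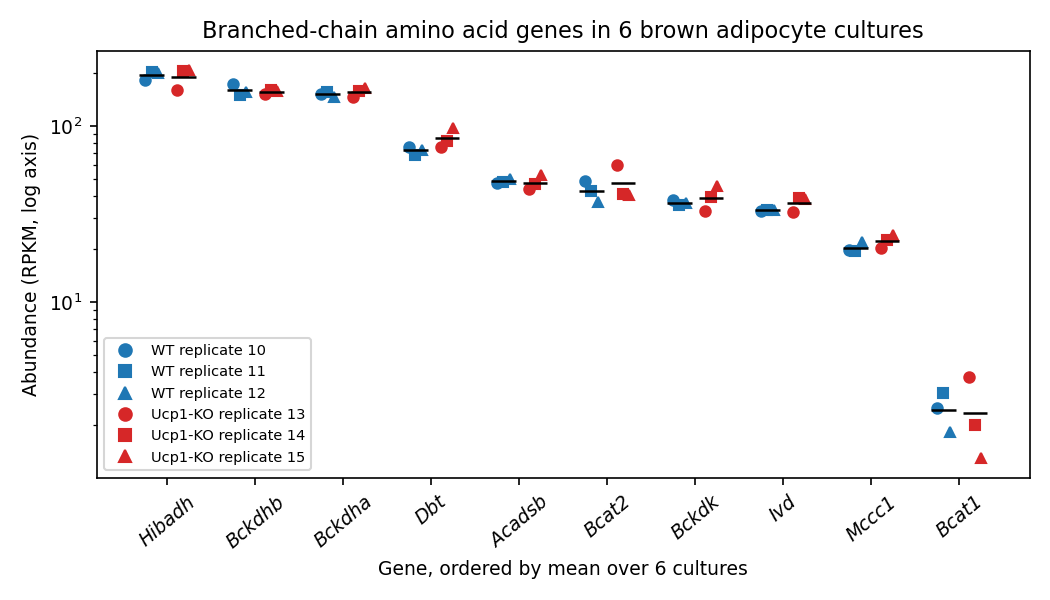
RPKM of the 10 members in each of the 6 cultures on a logarithmic axis, with the mean of each genotype as a line; genes are ordered by their mean. On these RefSeq rows the points of the genotypes overlap for every member, and Bcat1 lies far below the other 9.

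The aminotransferases lay far apart. The cytosolic enzyme Bcat1 (RefSeq row NM_007532, gene on the minus strand at chr6:144993835-145076157) was at 2.48, 3.01 and 1.83 RPKM in the WT cultures and at 3.72, 2.002 and 1.29 RPKM in the Ucp1-KO cultures. Here and in the following, the position is that of the whole gene in RefSeq, not of the row. The highest and the lowest value both belonged to Ucp1-KO cultures and differed 2.88-fold. Its coefficient of variation over the 6 cultures was 36.7%, the largest among the members, for which the median was 9.02%, and the median over all transcripts tested was 14.7%. The mitochondrial enzyme Bcat2 (row NM_001243053, gene on the plus strand at chr7:45568967-45589710) was at 48.7, 42.9 and 37.0 RPKM in the WT cultures and at 60.1, 40.8 and 40.6 RPKM in the Ucp1-KO cultures. Ucp1-KO replicate 13 was the highest culture for both aminotransferases, and the remaining cultures of both genotypes overlapped. Bcat2 took place 1342 of 22466 genes in the WT mean and Bcat1 place 9506.

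How far apart the aminotransferases lay depended on the transcript model used for Bcat1. The RefSeq row had a length of 7852 bases, whereas a cDNA row of the same gene with 2465 bases carried almost as many reads, between 91.4% and 94.1% of them in each culture. On this shorter model Bcat1 was at 7.22 ± 1.84 RPKM in WT (SD, n = 3) and at 6.90 ± 3.60 RPKM in Ucp1-KO cultures (SD, n = 3). Bcat1 remained last among the members on either model. The RefSeq isoforms themselves were hardly resolved, since their rows held nearly equal read numbers: the distal and the internal isoform of Bcat1 differed by 6, 5 and 8 reads in the WT and by 10, 1 and 3 reads in the Ucp1-KO cultures, out of 152 to 472 reads. The 3 isoforms of Bcat2 differed by at most 3 reads in any culture. Use of 1 or the other promoter could therefore not be measured from these rows.

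**Figure D2:**
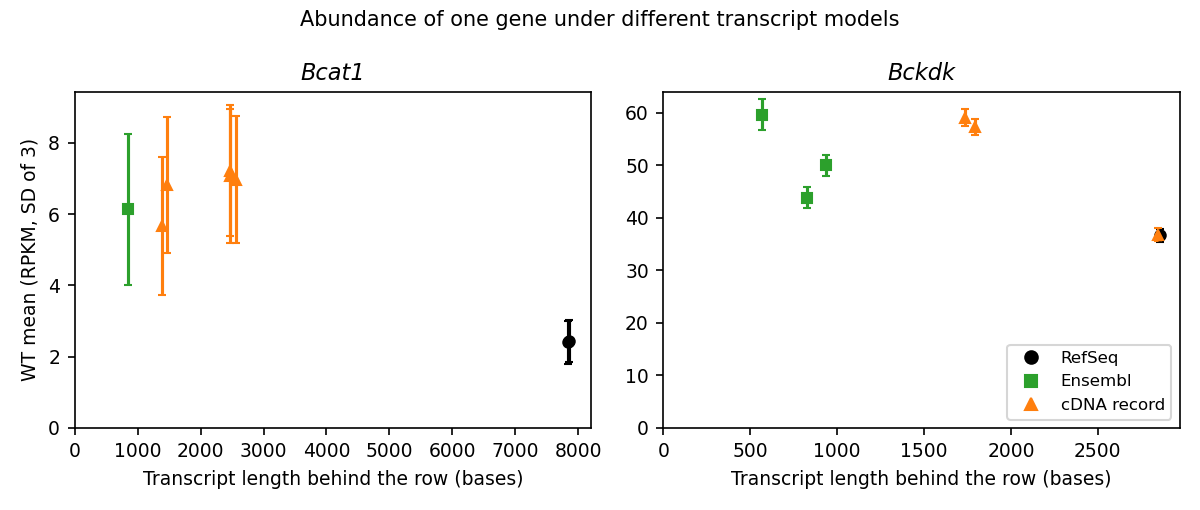
Mean RPKM of the WT cultures (points, with bars for the SD, n = 3) against the transcript length behind each row of Bcat1 (left) and Bckdk (right), with RefSeq, Ensembl and cDNA rows marked by colour and shape. Bcat1 lies at 2.44 RPKM on the 7852-base RefSeq row and at up to 7.22 RPKM on the shorter rows, and Bckdk at 36.7 RPKM on its RefSeq row and at 59.1 RPKM on the 1738-base cDNA row.

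The E1 subunits of the BCKDH complex were the most even pair, whereas Dbt varied more. Bckdha, the E1 alpha subunit (row NM_007533, gene on the minus strand at chr7:25629852-25658782), was at 152, 156 and 146 RPKM in the WT and at 145, 158 and 163 RPKM in the Ucp1-KO cultures. Its E1 beta partner Bckdhb (row NM_199195, gene on the plus strand at chr9:83925111-84124240) was at 174, 149 and 155 RPKM in the WT and at 150.9, 160.4 and 157 RPKM in the Ucp1-KO cultures. The E1 subunits, which assemble in equal numbers, had coefficients of variation of 4.63% and 5.60% over the 6 cultures and overlapped between the genotypes. Dbt, the E2 core on which the other subunits assemble (row NM_010022, gene on the plus strand at chr3:116513070-116549981), was at 75.9, 68.6 and 73.0 RPKM in the WT and at 75.5, 82.0 and 97.0 RPKM in the Ucp1-KO cultures. Ucp1-KO replicates 14 and 15 were above all WT cultures for Dbt, and replicate 13 lay within the WT range. Its coefficient of variation was 12.7%, above the median of the members.

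The kinase Bckdk (row NM_009739, gene on the plus strand at chr7:127904073-127909664), which phosphorylates the E1 alpha subunit and thereby inactivates the complex, was at 38.03, 35.5 and 36.4 RPKM in the WT and at 32.6, 39.2 and 45.3 RPKM in the Ucp1-KO cultures. The WT values fell within the range of the Ucp1-KO values, which ran from the lowest to the highest of the 6 cultures. On a cDNA row of 1738 bases, which carried between 97.2% and 98.5% of the reads of the 2857-base RefSeq row, Bckdk was at 59.1 ± 1.64 RPKM in WT cultures (SD, n = 3) and moved up to place 5 in the order.

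Downstream of the complex, Ivd (isovaleryl-CoA dehydrogenase of the leucine route, row NM_019826, gene on the plus strand at chr2:118861959-118882909) was at 32.6, 33.3 and 33.5 RPKM in the WT and at 32.5, 38.6 and 38.6 RPKM in the Ucp1-KO cultures. Mccc1, the biotin-carrying subunit of methylcrotonyl-CoA carboxylase in the same route (row NM_023644, gene on the minus strand at chr3:35956292-36000694), was at 19.7, 19.6 and 21.8 RPKM in the WT and at 20.3, 22.4 and 23.9 RPKM in the Ucp1-KO cultures. For both leucine genes Ucp1-KO replicates 14 and 15 were above all WT cultures, and replicate 13 was not. Acadsb, the short/branched-chain acyl-CoA dehydrogenase of the isoleucine route (row NM_025826, gene on the plus strand at chr7:131410601-131446211), was at 47.4, 48.3 and 49.8 RPKM in the WT and at 43.7, 46.8 and 52.4 RPKM in the Ucp1-KO cultures. Hibadh, the 3-hydroxyisobutyrate dehydrogenase of the valine route (row NM_145567, gene on the minus strand at chr6:52546230-52640300), was at 181, 201 and 200.03 RPKM in the WT and at 159, 204 and 207 RPKM in the Ucp1-KO cultures. For Acadsb and Hibadh the WT values lay inside the range of the Ucp1-KO values, with replicate 13 lowest and replicate 15 highest. Hibadh took place 244 of 22466 genes in the WT and place 255 in the Ucp1-KO mean.

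The comparison of the genotypes, which is the only contrast of the study, asks whether loss of Ucp1 goes along with other transcript changes. It was made with limma on log2(RPKM + 1) over 16865 RefSeq transcripts, with Benjamini-Hochberg adjustment over all of them. None of the 10 members passed an adjusted p-value of 0.05, on a background of 0% of all transcripts passing. The targeted gene Ucp1 itself, with a log2 difference of -1.78, had an adjusted p-value of 0.868, so that 0 calls at this threshold say little about the members. The paper's own comparison of these cultures, made with DESeq2, did report differential genes, Ucp1 among them. None of the 10 members is in that list. At an unadjusted p-value under 0.05 it was 0 of 10 members, against 5.54% of all transcripts (935). On the RefSeq rows the values of the genotypes were without overlap for 0 of 10 members, against 11.2% of all transcripts. This depended on the row: on a cDNA row of Dbt (2733 bases) WT cultures reached 80.87 RPKM and Ucp1-KO cultures began at 81.11 RPKM. On an Ensembl row of Ivd (3665 bases) these values were 23.92 and 24.06 RPKM. A cDNA row of Acadsb (2861 bases) separated in the other direction, with Ucp1-KO cultures up to 1.98 RPKM and WT cultures from 2.12 RPKM. With limma-voom on read numbers the counts over all transcripts were 0 adjusted and 942 unadjusted. The fitted mean of 6 members was higher and that of 4 lower in Ucp1-KO cultures, with a median log2 difference of 0.06, while 8369 of all transcripts were higher and 8496 lower, with a median of -0.0016. Leaving out 1 culture moved the median of the members to between 0.01 (without WT replicate 12) and 0.08 (without Ucp1-KO replicate 13), with 0.03 without Ucp1-KO replicate 15, and that of all transcripts to between -0.04 and 0.02.

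Dbt had the largest difference, 0.22 on the log2 scale (SE 0.11, 95% confidence interval -0.05 to 0.49, limma adjusted p = 0.871), the means being 72.5 ± 3.68 RPKM (WT) and 84.8 ± 10.99 RPKM (Ucp1-KO; SD, n = 3 each). It was followed by Ivd at 0.13 (SE 0.10, interval -0.09 to 0.36), with 33.1 ± 0.436 and 36.6 ± 3.54 RPKM. Bcat2 and Mccc1 were both at 0.12, but the interval of Bcat2 (-0.31 to 0.55) was wider than that of Mccc1 (-0.11 to 0.35). Bckdk was at 0.08 (interval -0.22 to 0.38). These 5 members and Bckdha, at 0.04 (interval -0.17 to 0.24), were the 6 with a higher mean in Ucp1-KO cultures. Bckdhb and Acadsb were both at -0.03, with intervals of -0.25 to 0.19, and Hibadh was at -0.04 (interval -0.34 to 0.26). The least certain member was Bcat1 at -0.10 (SE 0.27, interval -0.75 to 0.56), the means being 2.44 ± 0.592 RPKM (WT) and 2.34 ± 1.25 RPKM (Ucp1-KO). The intervals of the E1 subunits leave room for differences of about 0.2 in either direction, and that of Bcat1 for more.

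**Figure D3:**
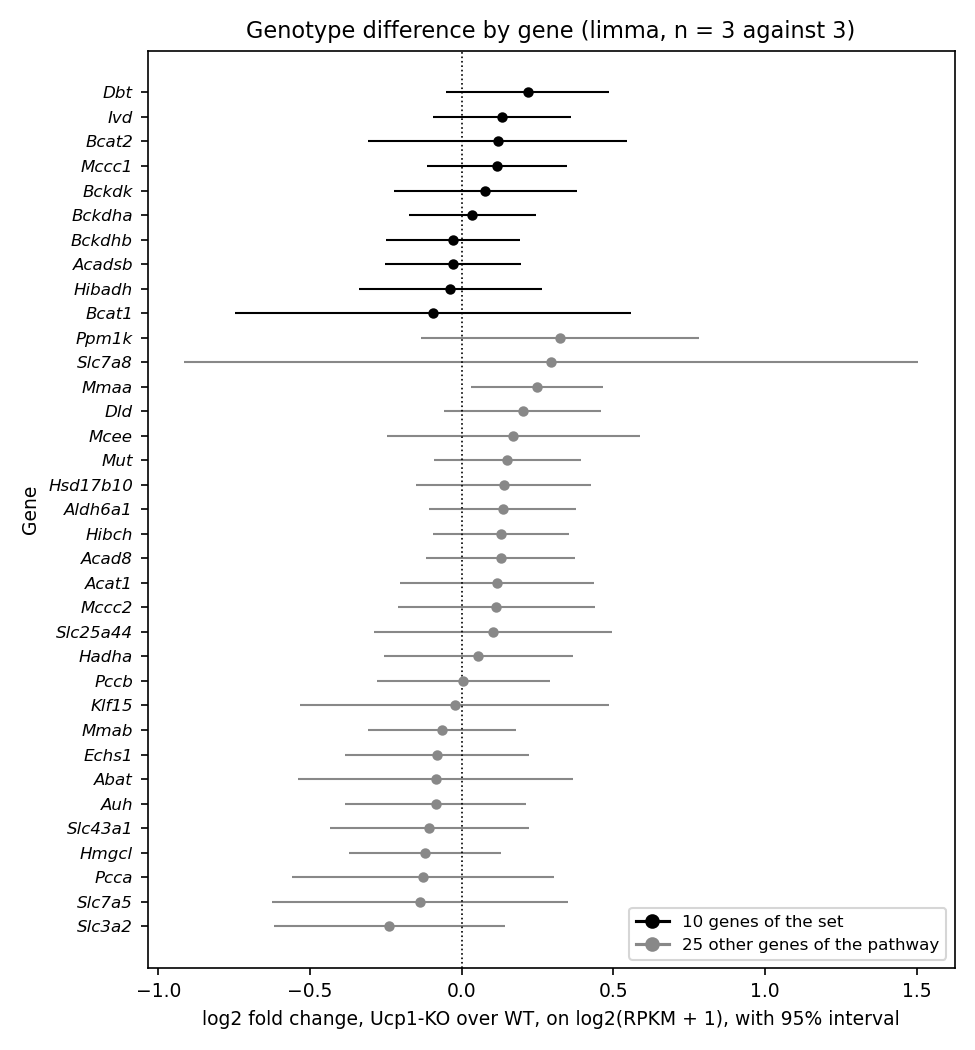
Fitted log2 difference between Ucp1-KO and WT cultures (points) with its 95% confidence interval (bars) for the members and the other genes of the pathway, from limma on log2(RPKM + 1). The intervals of all 10 members cross 0, and Mmaa is the gene of the pathway list whose interval does not.

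Adjusted p-values of the members lay between 0.871 and 0.971. In exact two-sided permutation tests of the RPKM values, which with 3 against 3 cultures cannot go below 0.1, the smallest p among the members was 0.2, for Dbt and Mccc1. The direction of Bcat1, Bcat2, Bckdha, Bckdhb, Bckdk, Acadsb and Hibadh rested on single cultures, since leaving out 1 of the 6 turned it for each of these 7, and that of Dbt, Ivd and Mccc1 was kept. Without Ucp1-KO replicate 13 the difference of Dbt was 0.30, with a limma p-value of 0.0370 before and of 0.525 after adjustment. That of Ivd was then 0.21, with a limma p-value of 0.0437 before and of 0.536 after adjustment. In this fit 2 of 10 members, Dbt and Ivd, were under 0.05 before adjustment, against 9.15% of all transcripts. Without replicate 15 the difference of Dbt was 0.12.

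Ratios within a culture, which do not depend on its total, were used to compare the members with each other. Bckdha and Bckdhb were close to equal in every culture, with a ratio of 0.953 ± 0.0883 in WT and 0.994 ± 0.0398 in Ucp1-KO cultures (SD, n = 3 each). Dbt relative to Bckdha was 0.5005, 0.439 and 0.501 in the WT and 0.521, 0.521 and 0.594 in the Ucp1-KO cultures. These Dbt ratios did not overlap between the genotypes, but the exact two-sided permutation p of 0.1 is the smallest that 3 against 3 cultures allow, and it was 0.5 after adjustment over the 5 ratios. Bckdk relative to Bckdha was 0.242 ± 0.0133 in WT and 0.251 ± 0.0264 in Ucp1-KO cultures, and the phosphatase relative to the kinase (Ppm1k to Bckdk) was 0.164 ± 0.0179 and 0.201 ± 0.0269. Neither differed beyond the spread (exact permutation p of 1.0 and 0.3). Bcat2 exceeded Bcat1 by a factor of 19.6, 14.2 and 20.2 in the WT and of 16.1, 20.4 and 31.4 in the Ucp1-KO cultures (exact permutation p = 0.4). With the highest row of at least 1000 bases in any annotation, the WT mean of this factor was 6.63 instead of 18.02, so that its size, unlike its direction, followed the choice of the transcript model.

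**Figure D4:**
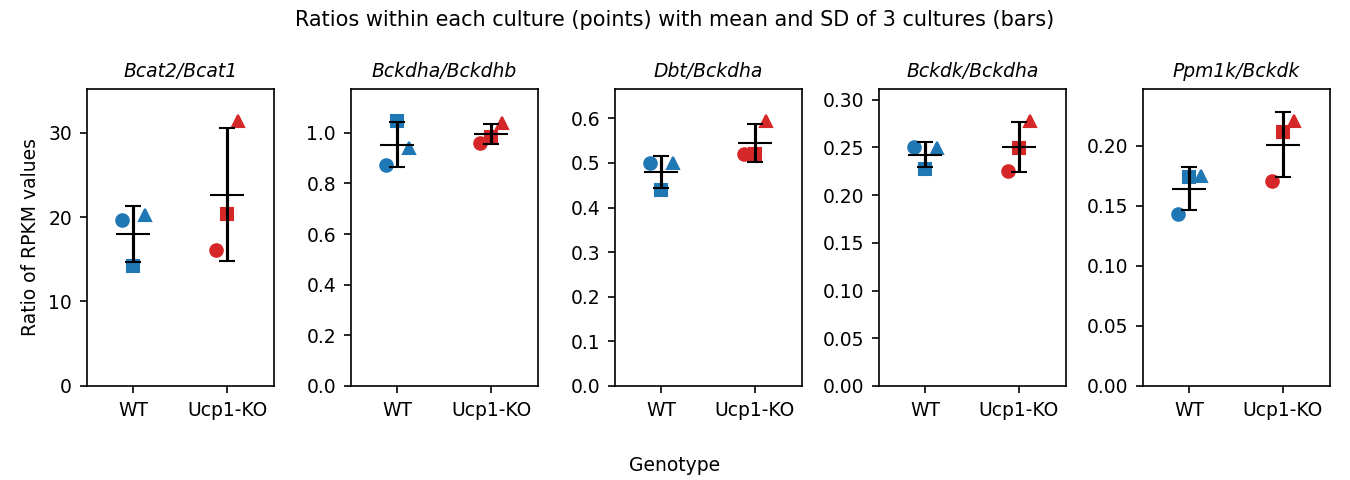
Ratios of the RPKM values of 5 gene pairs in each culture (points), with the mean and SD of each genotype (lines and bars, n = 3); each panel has its own axis starting at 0. Only for Dbt relative to Bckdha are the points of the genotypes separate.

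The members spread more within the Ucp1-KO than within the WT cultures. The SD of the RPKM values was larger in Ucp1-KO cultures for 9 of the 10, against 59.4% of all transcripts tested. Ucp1-KO replicate 15 held the highest value of 6 of the 10 members, whereas it was highest for 23.6% of all transcripts tested. Ucp1-KO replicate 13 held the lowest value of 5 of the 10, against 24.5% of all transcripts, and yet the highest of Bcat1 and Bcat2. Relative to the WT mean, the median log2 value of the members was -0.04 in replicate 13, 0.07 in replicate 14 and 0.11 in replicate 15, and between 0.00 and 0.02 in the WT cultures. Bcat1 ran opposite to most members, at 0.52 above the mean of all cultures in replicate 13 and at -0.53 in replicate 15, on the log2(RPKM + 1) scale. The summed level of the 7 brown adipocyte markers was likewise lowest in replicate 13 (1637 RPKM) and highest in replicate 15 (2669 RPKM), with WT cultures between 1771 and 2001 RPKM. The 5 proliferation markers summed to 39.5 RPKM in replicate 13 and to between 9.34 and 17.2 RPKM in the other cultures, and 1 of the 5 did not overlap between the genotypes (background 11.2%). The 9 stromal and preadipocyte markers summed to between 727 and 1806 RPKM in the WT cultures. In the Ucp1-KO cultures they summed to between 711 and 1042 RPKM, with replicate 15 the lowest of the 6. Of the 8 tested, 3 did not overlap between the genotypes (background 11.2%). This list was drawn up with earlier results of these data known. It holds Lum, which the paper lists as lower in Ucp1-KO cells, so its count is no independent evidence. Macrophage markers (5 of 6 names in the table) reached 803 RPKM in replicate 14, against 41.4 to 169 RPKM in the other cultures. Endothelial markers summed to between 2.76 and 33.2 RPKM and skeletal muscle markers to between 2.40 and 10.7 RPKM over the 6 cultures. No marker of any list was at 0 in all cultures, and the part of these cells in the members' values was not tested.

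**Figure D5:**
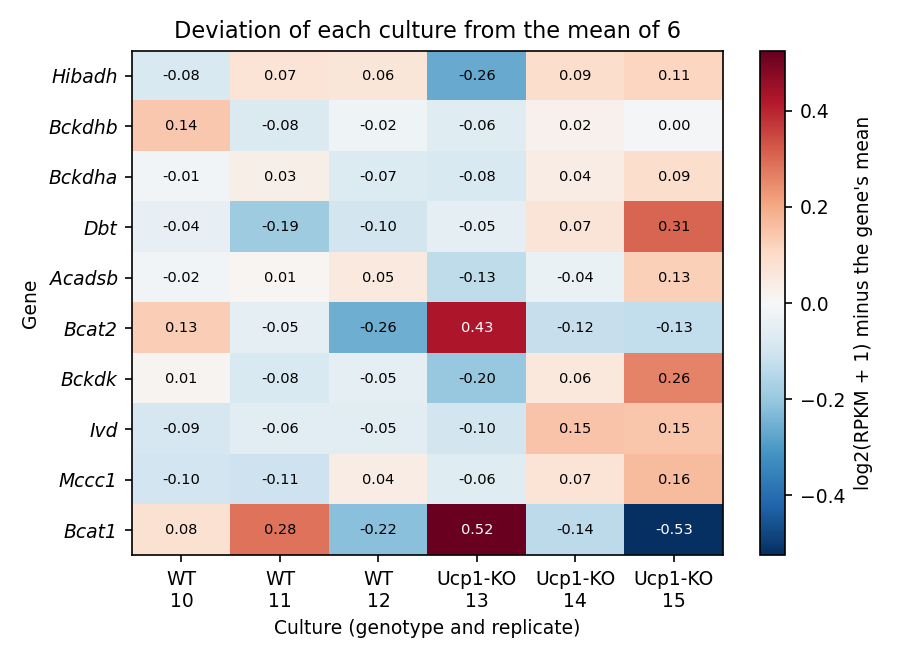
Value of log2(RPKM + 1) of each member (rows) in each culture (columns), relative to the gene's mean over the 6 cultures, with the value printed in each cell. Ucp1-KO replicate 13 is low for most members but high for Bcat1 and Bcat2, and replicate 15 is low for these genes and highest for 6 others.

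The other genes of the pathway, 25 in number and all tested, gave 0 calls at an adjusted p-value of 0.05 in either direction (background 0%) and 1 at an unadjusted p under 0.05 (background 5.54%). The fitted mean of 15 was higher and that of 10 lower in Ucp1-KO cultures, with a median log2 difference of 0.10 and a range of -0.24 to 0.32. This median was 0.01 without Ucp1-KO replicate 15, 0.02 without Ucp1-KO replicate 14, 0.06 without WT replicate 11, 0.06 without WT replicate 12 and 0.17 without Ucp1-KO replicate 13. Of the 2 further genes of the complex, Dld (the E3 subunit, shared with other dehydrogenases) was at 344, 280 and 312 RPKM in the WT and at 339, 362 and 371 RPKM in the Ucp1-KO cultures, a difference of 0.20 (SE 0.11). Ppm1k, the phosphatase that activates the complex, was at 5.46, 6.19 and 6.37 RPKM in the WT and at 5.56, 8.31 and 10.01 RPKM in the Ucp1-KO cultures, the largest difference of the list at 0.32 (SE 0.19, limma adjusted p = 0.876). Replicate 13 overlapped the WT values for both genes. Without it the difference of Ppm1k was 0.53, with a limma p-value of 0.00556 before and of 0.459 after adjustment, and without replicate 15 it was 0.16. That of Dld was 0.13 without WT replicate 11 and 0.27 without WT replicate 10.

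Among the 5 genes of amino acid entry, 2 were higher and 3 lower. Slc25a44, the mitochondrial carrier for branched-chain amino acids, was read from the RefSeq row NR_027357. This is a record of a non-coding transcript and the highest of the gene's 4 RefSeq rows. Slc25a44 was at 45.7, 34.7 and 36.7 RPKM in the WT and at 50.5, 41.2 and 34.6 RPKM in the Ucp1-KO cultures. The log2 difference was 0.10, and 0.11 with the sum of all RefSeq rows. Slc3a2, the heavy chain of the plasma membrane transporters, was at 42.8 ± 7.07 RPKM in the WT and 36.0 ± 5.26 RPKM in the Ucp1-KO cultures (SD, n = 3 each; log2 difference -0.24, limma adjusted p = 0.876). The difference was -0.11 without Ucp1-KO replicate 13, -0.14 without WT replicate 11 and -0.37 without WT replicate 10. Its light chain partner Slc7a8 was at 1.25, 1.80 and 1.66 RPKM in the WT and at 1.73, 6.24 and 0.562 RPKM in the Ucp1-KO cultures. Its log2 difference was 0.29 with replicate 14 and -0.31 without it. The transporter Slc43a1 was at 1.98 ± 0.443 and 1.75 ± 0.103 RPKM in the same order of genotypes.

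Past the complex, 1 of 3 genes of the leucine route, 6 of 8 of the isoleucine and valine routes and 4 of 6 of the propionyl-CoA route had a higher mean in Ucp1-KO cultures. The most abundant were enzymes that also serve fatty acid oxidation, Hadha at 494 ± 27.3 RPKM in the WT and 516 ± 71.3 RPKM in the Ucp1-KO cultures and Echs1 at 363 ± 14.7 and 345 ± 49.8 RPKM (SD, n = 3 each). Abat, a transaminase of the valine route, was among the least abundant, at 2.86 ± 0.722 and 2.62 ± 0.618 RPKM. Mmaa, which takes part in loading methylmalonyl-CoA mutase with its vitamin B12 cofactor, was the 1 gene whose genotypes did not overlap (background 11.2%). It was at 6.88, 7.25 and 6.67 RPKM in the WT and at 8.08, 8.20 and 8.99 RPKM in the Ucp1-KO cultures. Its log2 difference of 0.25 (SE 0.09, interval 0.03 to 0.46) had a limma p-value of 0.0306 before and of 0.868 after adjustment over all transcripts. At an unadjusted threshold of 0.05 the list gave 4 of 25 genes without Ucp1-KO replicate 13, where 9.15% of all transcripts passed, and 2 without WT replicate 10, where 10.4% did. It gave 1 without WT replicate 11 (1.87% of all), and 0 without WT replicate 12 (2.61%), Ucp1-KO replicate 14 (3.57%) or Ucp1-KO replicate 15 (5.18%).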

How the data were processed

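RNA sequencing of 6 cultures of primary brown adipocytes (3 WT, 3 Ucp1-KO) yielded single reads of 50 bases. Reads were aligned by the authors to build 38 of the mouse genome, unique ones were assigned to known transcripts with Genomatix software, and the authors deposited RPKM values, normalized to transcript length and mapped reads. The submitters' processing notes also name CASAVA and bcl2fastq. Genotypes came from the sample labels. Animals per culture were not followed here, so p-values measure the spread between these cultures.

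The deposited table holds 168326 rows, of which 28890 are RefSeq transcripts of 22466 genes. The RefSeq isoforms of Bcat1 and of Bcat2 held nearly equal read numbers, so their rows are not independent. Tested were the 16865 RefSeq rows (12259 genes) that reached 0.5 RPKM on average. The test was limma 3.58.1 (R 4.3.3; empirical Bayes with trend) on log2(RPKM + 1), a scale that understates differences of low genes, with Benjamini-Hochberg adjustment and a threshold of 0.05. Single genes and ratios were compared by exact two-sided permutation tests (smallest p 0.1). Other steps ran in Python 3.11.15 (numpy 2.4.6, pandas 2.3.3, scipy 1.17.1, matplotlib 3.10.9).

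Low RPKM values are whole multiples of 1 read. Library totals found from Ensembl transcripts of known length (GENCODE M21) gave whole reads, within 0.01 reads, for 100% of the tested RefSeq rows, and limma-voom on these reads served as an alternative. Lengths named for a row were recovered in this way. The floor was 3 reads and covers counting error only. The fit was tested on simulated data.

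The members, gene lists and tests were chosen with earlier results of these data known. All members are named, and of the pathway list those past the adjusted threshold (none), the 4 largest differences, the 3 highest and 3 lowest means, genes without overlap, and Ppm1k, Dld and Slc25a44. Promoter sequences are from RefSeq (GRCm38.p6). Alternatives were 0.1 RPKM added, no minimum, 1 transcript per gene, the sum of all RefSeq rows, median-of-ratios scaling, limma-voom, 1 RPKM added in ratios and leaving out each culture. Rows of any annotation were added after seeing the data.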

Additional observations from a re-analysis of the deposited data

How the results depend on the processing

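No member passed the adjusted threshold under any alternative run. For the whole pathway list and for all transcripts, the sum of RefSeq rows gave no count, and under the alternatives that did the adjusted count was 0, over 12259 to 23421 transcripts tested. At an unadjusted p under 0.05 it was 935 of 16865 transcripts, and 314 to 1760 when 1 culture was left out. Of 120 alternative values of the members' log2 differences, 112 kept their direction, and the 8 that did not came from leaving out 1 culture. With each culture left out in turn, the log2 difference ran from -0.38 to 0.14 for Bcat1, from -0.066 to 0.21 for Bcat2, from -0.0014 to 0.083 for Bckdha, from -0.074 to 0.035 for Bckdhb, from -0.033 to 0.20 for Bckdk, from -0.10 to 0.030 for Acadsb and from -0.10 to 0.084 for Hibadh. It kept its sign for Dbt (0.12 to 0.30), Ivd (0.09 to 0.21) and Mccc1 (0.06 to 0.18). Among the other genes it ran from -0.31 to 0.80 for Slc7a8, from -0.21 to 0.0012 for Slc43a1, from -0.034 to 0.23 for Slc25a44, from -0.17 to 0.035 for Echs1, from -0.027 to 0.17 for Hadha and from -0.25 to 0.029 for Abat. It kept its sign for Ppm1k (0.16 to 0.53), Dld (0.13 to 0.27), Slc3a2 (-0.37 to -0.11) and Mmaa (0.21 to 0.28). For 7 of the 10 members and for Slc25a44, Ppm1k, Echs1 and Hadha, both ends of the range came from leaving out Ucp1-KO replicates 13 and 15. The log2 difference of the ratio of Bckdk to Bckdha ran from -0.033 to 0.12. No paired analysis was made, because the labels do not say whether WT and Ucp1-KO cultures were prepared together.

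The WT mean ratio of Bcat2 to Bcat1 (18.02) was 26.3 with the sum of all RefSeq rows, a value fixed by the 3 rows of Bcat2 and 2 of Bcat1 that hold nearly equal reads, 12.9 with 1 RPKM added to both genes and 6.63 with the highest row of at least 1000 bases in any annotation. With the latter rows the ratio of Bckdk to Bckdha was 0.367 and that of Ppm1k to Bckdk 0.145, and with 1 RPKM added the latter was 0.186. Among the members, read numbers were lowest for Bcat1 (152 reads in Ucp1-KO replicate 15), and 3 cultures a genotype limit the width of the intervals.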
